A study of Homo sapiens with 12 samples.

Results

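The genes described here are those that build ribosomes in the nucleolus, together with the core of RNA polymerase I. The list named 39 genes, and every probe set annotated to exactly 1 of them was taken. This gave 67 probe sets for 32 genes, out of 54675 probe sets on the array, of which 41097 carried exactly 1 gene. All 32 genes had a probe set that passed the filter on dim values (54 of the 67 did), and where a gene had several, the brightest on average was used. NOP56, DKC1, BOP1 and PPAN were not measured, because their probe sets are annotated to several genes, and DDX18, EBNA1BP2 and GNL3 had no probe set in the annotation used.

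The series compared HK-2, an immortalized cell line from human kidney proximal tubule, with and without CsA. CsA is taken to be cyclosporin A, an immunosuppressant that is toxic to the kidney, and the controls received vehicle alone. The groups were CsA for 48 h, control for 48 h, CsA for 12 h and control for 12 h, with 3 arrays each. All cells, controls included, grew in medium with epidermal growth factor, hydrocortisone, insulin, transferrin and selenium. They were seeded the day before and exposed near confluence. No source used here gives the dose of CsA or names the vehicle. The labels call the replicates biological without saying how the cultures were separated, so p-values measure the spread between these arrays.

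RNA polymerase I transcribes the long precursor of the ribosomal RNAs in the nucleolus. Small nucleolar ribonucleoprotein particles (snoRNPs) guide its chemical modification: box C/D particles direct ribose methylation and box H/ACA particles direct pseudouridine formation. Large assemblies then cut and fold the precursor into the small and large ribosomal subunits, work that takes up much of the transcription of a growing cell.

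Values are log2 probe set summaries as deposited, and levels are compared within a gene only, since a probe set's brightness depends on its probes. The arrays were alike in the share of probe sets above a log2 value of 4 (42.2% to 42.8%), and the 11154 genes tested had a median within-group SD of 0.20 with CsA and 0.15 in the controls at 48 h, and of 0.11 and 0.10 at 12 h. The third CsA array of 48 h (replicate 3) stood apart: its hybridization controls had a median of 7.38, against 9.89 to 11.42 on the other arrays, and its median over all genes was 9.55, against 9.35 to 9.46. In both groups of 48 h, replicate 1 had low poly-A controls (medians of 4.13 with CsA and 3.78 without), where other arrays had 8.26 to 9.99. Of 15 epithelial and proximal tubule markers 6 were measured, KRT8, KRT18, EPCAM, PAX8, CDH6 and CDH16, while defining markers of the mature tubule such as LRP2, CUBN, AQP1, GGT1 and SLC34A1 were near background. CDH1, a general epithelial marker of the same list, was also near background (2.17 to 2.20). None of the 5 endothelial or 5 leukocyte markers passed the filter, against 4 of 7 fibroblast and mesangial markers and 1 of 4 podocyte markers.

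The members were bright, with means over the 12 arrays between 7.43 for RRP9 and 15.47 for NPM1 and a median of 10.90. Averaged over the 32 genes, the arrays read 11.06, 11.07 and 11.22 with CsA at 48 h, against 11.00, 10.99 and 10.98 in the controls at 48 h. At 12 h they read 10.90, 10.84 and 10.94 with CsA, against 10.98, 10.83 and 10.90 in the controls. The 3 CsA arrays at 48 h were the 3 highest of the 12. Relative to the median of all genes on the same array, the members stood at 1.71, 1.71 and 1.66 with CsA at 48 h, against 1.57, 1.52 and 1.58 in the controls at 48 h. As the arrays are scaled against each other, a change in the amount of these transcripts per cell cannot be told apart from a change in all the others, nor fewer cells from less RNA per cell.

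**Figure D1:**
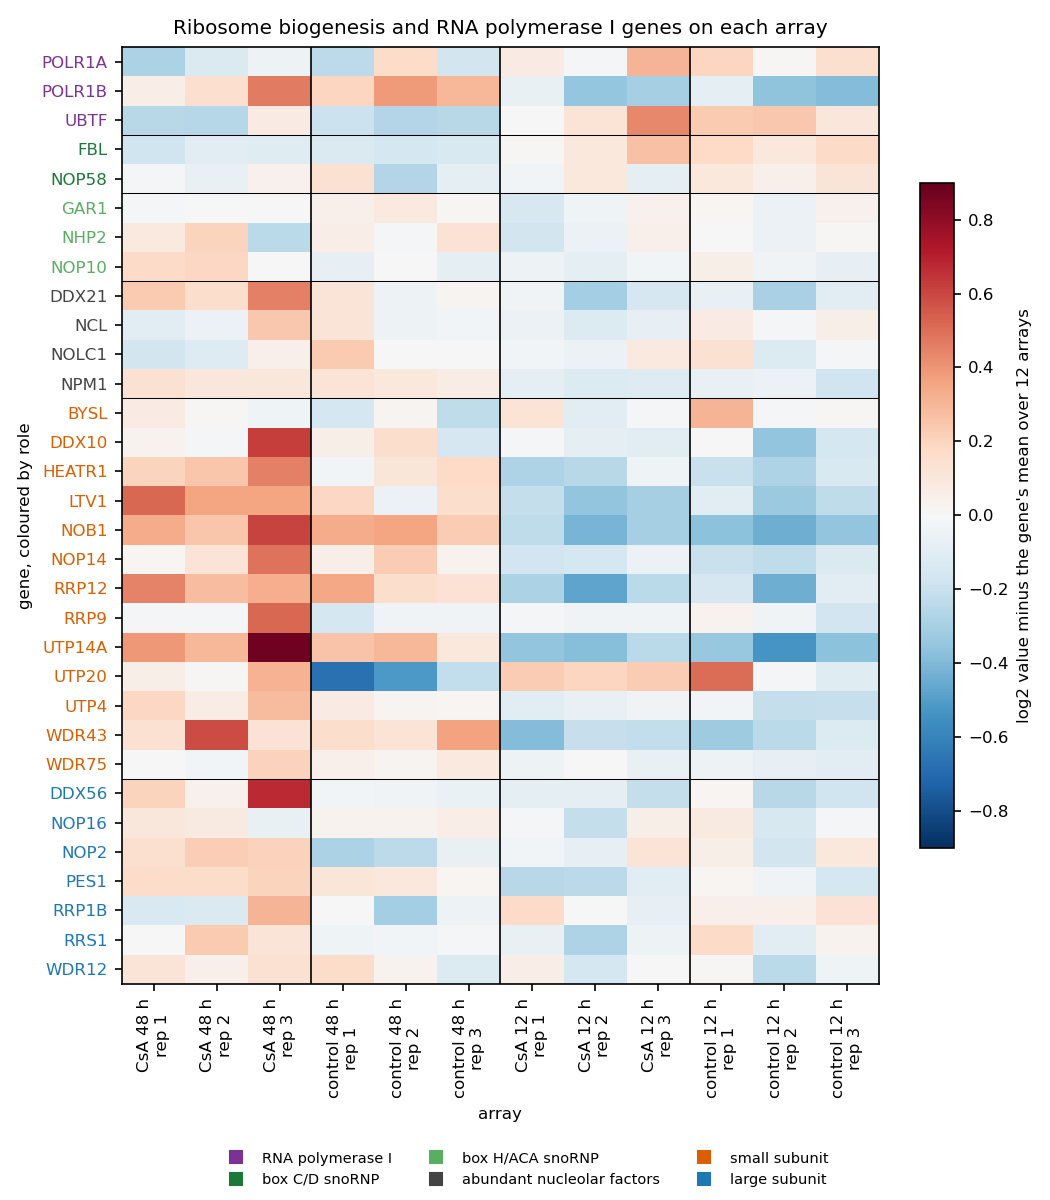
Log2 value of each of the 32 genes (rows, grouped and coloured by role) on each of the 12 arrays (columns), minus the gene's mean over all arrays. The colours run from -0.9 to 0.9. Red fills most of the small subunit block on the 48 h arrays, with UTP20 on the control arrays at 48 h as the clearest exception. BYSL is also below its mean on control 48 h replicates 1 and 3, and RRP9 on every 48 h array but CsA replicate 3. CsA 48 h replicate 3 is the highest of its group in 21 of the 32 genes.

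At 12 h, no change with CsA was detected in any of the 32 genes. In limma with Benjamini-Hochberg adjustment 0 passed a threshold of 0.05, and of all genes tested 0% did. No member had an unadjusted p under 0.05, against 4.26% of all genes higher and 3.42% lower. Every member changed by less than 0.25 on the log2 scale in either direction, as did 91.4% of all genes, and the median change was -0.01 for the members and for all genes alike. The changes ran from -0.16 to 0.11, with 15 of 32 positive.

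The lowest values at 12 h belonged to RRS1, an assembly factor of the large subunit, PES1, part of the PES1-BOP1-WDR12 complex that processes large subunit RNA, and nucleolin. RRS1 had 11.70, 11.49 and 11.72 with CsA at 12 h, against 11.94, 11.67 and 11.80 in the controls. PES1 had 10.18, 10.19 and 10.34 with CsA at 12 h, against 10.45, 10.40 and 10.27 in the controls. Their log2 changes were -0.16 (SE 0.10) and -0.14 (SE 0.08), and in both genes the CsA and control arrays overlapped. Within replicate numbers, which pair the arrays at 12 h, RRS1 was lower with CsA in 3 of 3 pairs (-0.24, -0.18 and -0.07, limma adjusted p = 0.297 with the pairs as a block) and PES1 in 2 of 3. Nucleolin, RRP12, BYSL and LTV1 were also lower in 3 of 3 pairs, and POLR1B, NOP14, NOB1, WDR75 and WDR12 in 0 of 3. NCL, which encodes nucleolin, an abundant RNA-binding protein of the nucleolus, had 13.01, 12.94 and 12.99 with CsA at 12 h, against 13.14, 13.05 and 13.12 in the controls. This was a change of -0.12 (SE 0.06, limma adjusted p = 0.71), and NCL was the 1 member whose CsA arrays all lay below the control arrays, against 6.51% of all genes. No member had all its CsA arrays above the controls, against 6.53% of all genes. At the upper end stood DDX10, an RNA helicase of small subunit assembly, with 9.51, 9.45 and 9.43 with CsA at 12 h, against 9.53, 9.17 and 9.37 in the controls, a log2 change of 0.11 (SE 0.10). UTP20 and UTP14A had 0.09 each (SE 0.16 and 0.08). Among polymerase and snoRNP genes NOP58 had -0.09 (SE 0.07), with POLR1A at 0.00 (SE 0.10), POLR1B at 0.04 (SE 0.11), UBTF at -0.01 (SE 0.12) and FBL at -0.02 (SE 0.08). A dimmer probe set of POLR1A had a log2 change of -0.33.

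**Figure D2:**
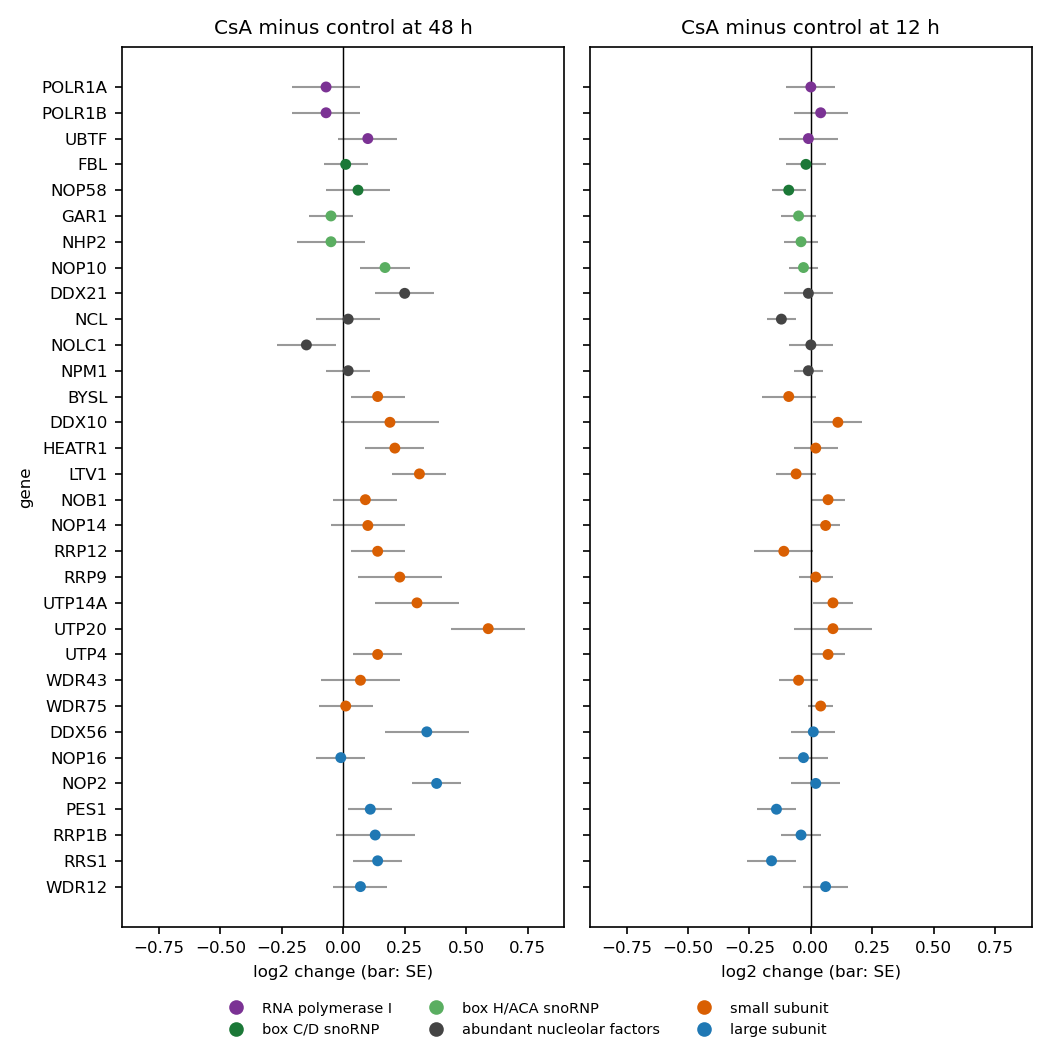
Log2 change, CsA minus control, of each member at 48 h (left) and 12 h (right). Points are the limma estimates from 3 arrays a group and bars are their standard errors. The 12 h points sit between -0.16 and 0.11, and the 48 h points reach from -0.15 (NOLC1) to 0.59 (UTP20).

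At 48 h, CsA cultures had slightly higher values for most of these genes, without a single call. No member passed the threshold, against 1.1% of all genes in either direction. Of the 32 members 26 had a positive log2 change (81.2%, against 49.2% of all genes), with a median of 0.11, against 0.00 over all genes. At an unadjusted p under 0.05 there were 3 members higher (UTP20, NOP2 and LTV1; 8.98% of all genes) and 0 lower (12.9% of all genes). All CsA arrays lay above all control arrays in 11 members, or 34.4%, against 13.9% of all genes. They were UTP20, LTV1, UTP14A, HEATR1, RRP9, NOP2, DDX56, PES1, RRS1, DDX21 and NOP10, and in NOP10, UTP14A and RRP9 the groups were apart by 0.012 or less. The reverse held for GAR1 alone, against 15.8% of all genes. The members are not independent of each other, and 21 of the 32 had their highest CsA value on replicate 3, the array that stood apart. Without that array 21 members were positive (65.6%, against 44.4% of all genes), 12 were apart upward (37.5%, against 18.5%) and 5 downward (15.6%, against 27%), and the median was 0.06, against -0.04.

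UTP20, a large scaffold protein of the small subunit processome, had the largest change. It had 8.43, 8.39 and 8.69 with CsA at 48 h, against 7.71, 7.86 and 8.16 in the controls. The controls at 48 h lay below the other 9 arrays of the series, which ran from 8.27 to 8.88, and the CsA arrays lay within the range of the 12 h arrays. The log2 change was 0.59 (SE 0.15, 1.50-fold, limma adjusted p = 0.104). In a model of all 12 arrays UTP20 and NOP2 passed (adjusted p = 0.0361 and 0.0251), 2 of 32 members, against 6.2% of all genes called higher there. Without CsA replicate 3 the log2 change of UTP20 was 0.50.

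NOP2, a methyltransferase of large subunit rRNA, had 10.67, 10.75 and 10.73 with CsA at 48 h, against 10.24, 10.29 and 10.46 in the controls. These groups did not overlap, and the CsA arrays lay above every other array of the series, the highest of which read 10.65. The log2 change was 0.38 (SE 0.10, 1.30-fold, limma adjusted p = 0.112). LTV1, an assembly factor of the small subunit precursor, had 11.50, 11.34 and 11.34 with CsA at 48 h, against 11.17, 10.93 and 11.14 in the controls. Its change was 0.31 (SE 0.11, limma adjusted p = 0.188), and again the CsA arrays at 48 h were the highest of the series. Leaving out CsA replicate 3 gave 0.37 for NOP2 and 0.34 for LTV1.

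Other positive values rested more on replicate 3. DDX56, an RNA helicase of large subunit assembly, had 9.45, 9.29 and 9.92 with CsA at 48 h, against 9.23, 9.22 and 9.19 in the controls, a log2 change of 0.34 (SE 0.17) that was 0.16 without that array. UTP14A, a processome component, had 10.87, 10.78 and 11.36 with CsA at 48 h, against 10.74, 10.78 and 10.58 in the controls, a log2 change of 0.30 (SE 0.17) and 0.12 without it. DDX10 had 9.56, 9.52 and 10.15 with CsA at 48 h, against 9.58, 9.69 and 9.38 in the controls, and its 0.19 (SE 0.20) turned to -0.01. In each of these 3 genes replicate 3 was the highest of the 6 arrays by a clear margin. DDX21, a helicase that works with RNA polymerase I and snoRNAs, had 13.97, 13.89 and 14.19 with CsA at 48 h, against 13.85, 13.69 and 13.76 in the controls, a log2 change of 0.25 (SE 0.12) and 0.16 without that array, with its CsA arrays above every other array of the series in either case. All 13 small subunit genes were positive, from 0.01 for WDR75 to 0.59, with a median of 0.14, and 9 of them were without CsA replicate 3. Of the 7 large subunit genes 6 were, with a median of 0.13, among them RRS1 with 11.77, 12.00 and 11.88 with CsA at 48 h, against 11.73, 11.74 and 11.75 in the controls, a log2 change of 0.14 (SE 0.10).

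Of the other genes at 48 h, fibrillarin, nucleophosmin and nucleolin lay near 0, and the polymerase genes were between -0.07 and 0.10. POLR1A, the largest polymerase subunit, had 7.17, 7.33 and 7.41 with CsA at 48 h, against 7.22, 7.62 and 7.29 in the controls, and POLR1B, the subunit that forms the active site with it, had 10.04, 10.13 and 10.45 with CsA at 48 h, against 10.17, 10.36 and 10.28 in the controls. Both had a log2 change of -0.07 (SE 0.14) with overlapping groups. UBTF, which binds the rRNA gene promoter and its transcribed body, had 8.25, 8.24 and 8.57 with CsA at 48 h, against 8.30, 8.23 and 8.25 in the controls, a log2 change of 0.10 (SE 0.12). FBL, which encodes fibrillarin, the ribose methyltransferase of box C/D particles, had 13.44, 13.52 and 13.51 with CsA at 48 h, against 13.49, 13.46 and 13.48 in the controls, a log2 change of 0.01 (SE 0.09). The 6 arrays ran from 13.44 to 13.52, and NOP58, the other box C/D protein measured, had 0.06 (SE 0.13). Among the box H/ACA proteins NHP2 and GAR1 had -0.05 each and NOP10 had 0.17 (SE 0.10). NPM1, nucleophosmin, an abundant histone and ribosome chaperone, had 15.61, 15.58 and 15.58 with CsA at 48 h, against 15.60, 15.57 and 15.54 in the controls, a log2 change of 0.02 (SE 0.09). NCL had 12.97, 13.01 and 13.31 with CsA at 48 h, against 13.18, 13.02 and 13.04 in the controls, also 0.02 (SE 0.13). NOLC1, a chaperone of snoRNPs, was the lowest member, with 12.98, 13.03 and 13.19 with CsA at 48 h, against 13.38, 13.14 and 13.14 in the controls and a log2 change of -0.15 (SE 0.12). Its 3 passing probe sets ran from -0.36 to 0.05. The probe set with -0.36 had 9.22, 9.52 and 8.40 with CsA at 48 h, against 9.14, 9.62 and 9.47 in the controls. Probe sets agreed in sign at 48 h in 6 of the 14 genes with several, where a value of 0.00 counts as no agreement. RRP12 had 0.14 for the one used and -0.33 for a dimmer one, HEATR1 ran from -0.21 to 0.21 with 0.21 for the one used, POLR1B ran from -0.13 to 0.18, and UBTF had 0.10 for the one used and -0.25 to -0.07 for the other 3. The dimmer RRP12 probe set had 7.47, 7.88 and 6.39 with CsA at 48 h, against 7.38, 7.68 and 7.66 in the controls. Its negative sign therefore rested on replicate 3.

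No member's CsA effect was found to differ between the times. The difference of the CsA effects, 48 h minus 12 h, was called for 0 of 32 members and 1.12% of all genes (limma on all 12 arrays). The median difference was 0.13 for the members, against -0.01 over all genes, and 0.04 without CsA 48 h replicate 3. The largest were UTP20 with 0.50 (SE 0.23, adjusted p = 0.303), LTV1 with 0.38 (SE 0.14, adjusted p = 0.193) and NOP2 with 0.37 (SE 0.14, adjusted p = 0.207). NOLC1 with -0.16 (SE 0.15), POLR1B with -0.11 (SE 0.18) and POLR1A with -0.07 (SE 0.18) were the lowest. At an unadjusted p under 0.05 there were 2 members, LTV1 and NOP2, both positive, where 7.02% of all genes were positive and 10.4% negative.

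More members were called between 12 h and 48 h than between CsA and control, as was so over all genes. With CsA, time in culture and length of exposure cannot be told apart. With CsA 9 members rose between 12 h and 48 h (POLR1B, DDX21, PES1 and 6 small subunit factors), against 23.6% of all genes. None fell, against 22.2% of all genes, with FBL alone lower at an unadjusted p under 0.05, and FBL and UBTF lower in a limma model of all 12 arrays. In the controls 8 rose (POLR1B and 7 small subunit factors) and 3 fell (UBTF, FBL and UTP20), against 25.2% of all genes higher and 22.2% lower. The counts of rises were near the background, and the counts of falls were under it. The median change was 0.18 with CsA and 0.09 in the controls, against 0.03 over all genes in both. All 48 h arrays lay above all 12 h arrays in 18 members with CsA (33.5% of all genes) and 13 in the controls (31.8%), and below them in 2 with CsA (27.9%) and 4 in the controls (28.4%). The 9 rises with CsA became 4 without 12 h replicate 2. The 8 rises in the controls became 5, 4 and 5 without 12 h replicate 1, 2 and 3, and the 3 falls became 1 without 12 h replicate 1.

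The same 7 genes rose in both time comparisons: POLR1B, NOB1, UTP14A, RRP12, LTV1, WDR43 and HEATR1. The comparisons share no array, but the CsA and control arrays of 12 h deviated together by replicate number (correlations 0.467 to 0.577). These 7 genes made up 77.8% of the 9 members called with CsA and 63.6% of the 11 called in the controls. Over all genes called in either direction the shares were 73.7% and 71.1%. Of all 11154 genes tested, 33.8% were called the same way in both. Upward in both were 2008 of the 11154, beside 7 of the 32 members. No member was called in opposite directions. Over the same interval all 27 genes of a mitosis list fell in both comparisons, with medians of -2.80 with CsA and -2.47 in the controls. CsA 48 h replicate 3 was again apart, with a mean of 10.11 over that list, against 8.16 and 7.56 on the other CsA arrays and 9.10 to 9.55 in the controls at 48 h. The part of cell division in the changes of the ribosome genes was not tested.

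**Figure D3:**
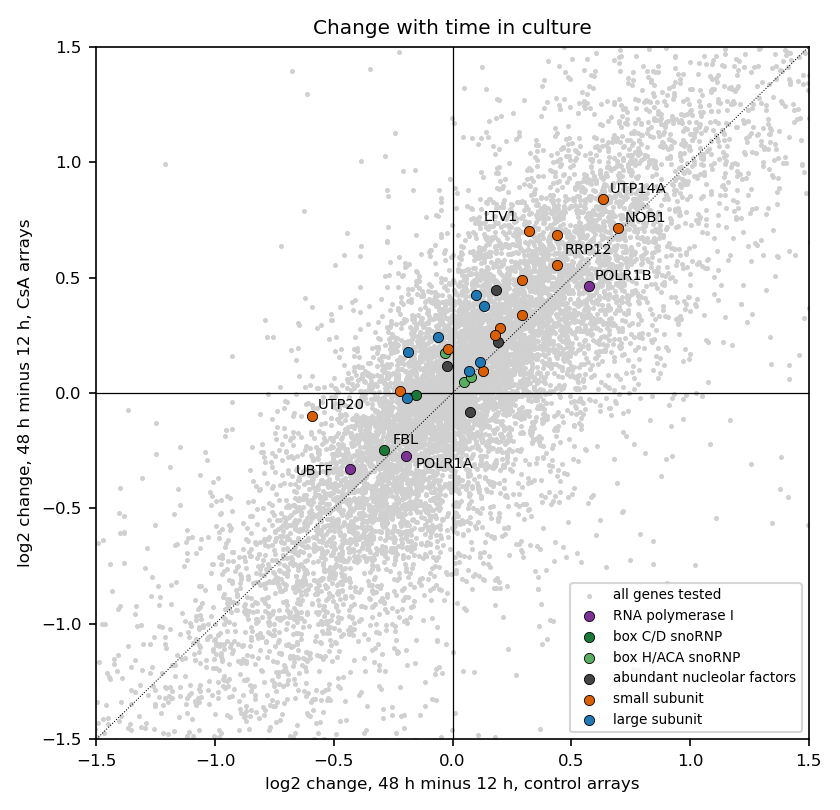
Log2 change between 12 h and 48 h with CsA (vertical axis) against the same in the controls (horizontal axis), for all 11154 genes tested (grey) and the 32 members (coloured by role). The axes end at 1.5, which leaves 1021 genes outside, and the dotted line marks equal change. NOB1 and UTP14A lie farthest up, UBTF, FBL and POLR1A lie below 0 on both axes, and UTP20 lies far left but close to 0 on the vertical axis.

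Most rises were in the small subunit factors, the largest role group: 6 of 13 rose with CsA (46.2%, against 23.6% of all genes). In the controls 7 rose (53.8%, against 25.2%) and 1 fell (7.69%, against 22.2%). The 38 further small subunit factors described below had smaller shares of rises, 34.2% with CsA and 15.8% in the controls. NOB1, the endonuclease that makes the last cut in small subunit rRNA, had 11.16, 11.08 and 11.44 with CsA and 11.16, 11.18 and 11.06 in the controls at 48 h, against 10.60, 10.41 and 10.53 with CsA and 10.46, 10.39 and 10.47 in the controls at 12 h. The 48 h arrays stood clear of the 12 h arrays in both treatments, with a log2 change of 0.71 with CsA (SE 0.12, adjusted p = 0.00517) and 0.70 in the controls (SE 0.07, adjusted p = 0.000609). UTP14A, whose 48 h values are given above, had 10.13, 10.10 and 10.24 with CsA at 12 h, against 10.14, 9.95 and 10.11 in the controls. It rose by 0.84 with CsA (SE 0.17, adjusted p = 0.0084) and by 0.63 in the controls (SE 0.09, adjusted p = 0.00211). A dimmer probe set of UTP14A changed by 0.39 with CsA and by 0.01 in the controls. It averaged 4.41 over the 12 arrays, close to the filter value of 4, so little can be read from its changes. LTV1 had 10.77, 10.63 and 10.68 with CsA at 12 h, against 10.88, 10.65 and 10.75 in the controls, below every 48 h array. It rose by 0.70 with CsA (SE 0.09, adjusted p = 0.00199) and by 0.32 in the controls (SE 0.10, adjusted p = 0.0393). These calls were kept without any 1 array for NOB1 and UTP14A, and for LTV1 with CsA, while LTV1 in the controls lost its call without 12 h replicate 2 (0.27) or 3 (0.32) or 48 h replicate 1 (0.28) or 3 (0.29).

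**Figure D4:**
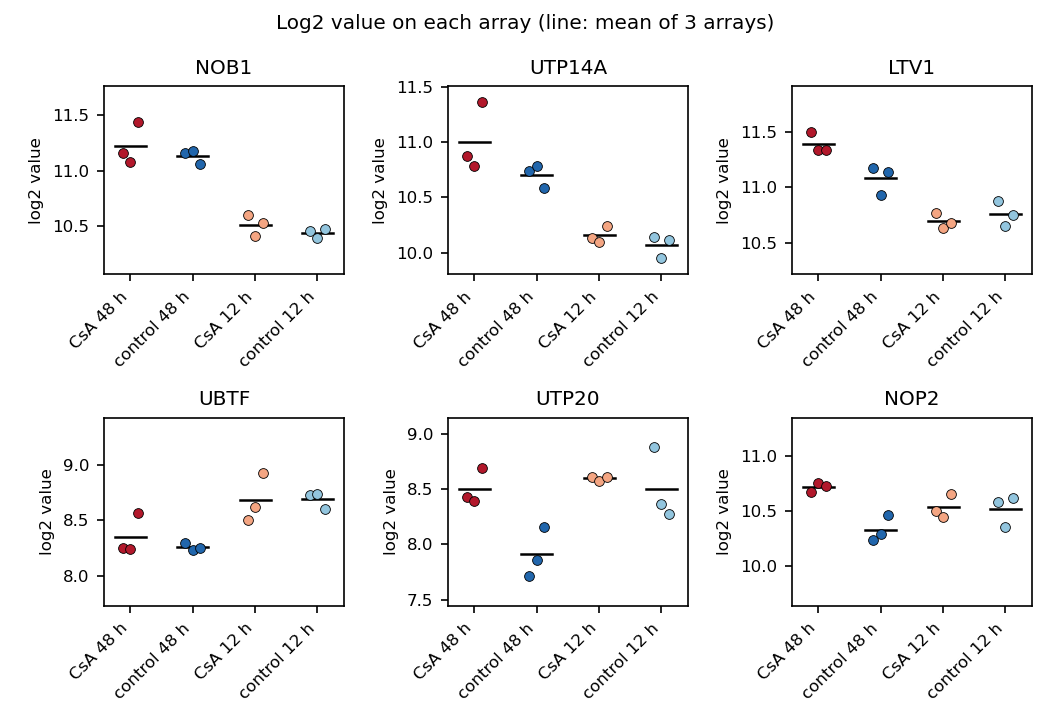
Log2 value on each of the 3 arrays a group (points) and their mean (line) for NOB1, UTP14A, LTV1, UBTF, UTP20 and NOP2. Every panel spans the same height on the log2 scale. The 48 h groups are high for NOB1, UTP14A and LTV1 and low for UBTF, and UTP20 is low in the control at 48 h only.

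RRP12, needed for the maturation and export of the small subunit precursor, had 9.29, 9.12 and 9.17 with CsA and 9.19, 9.00 and 8.97 in the controls at 48 h, against 8.56, 8.37 and 8.60 with CsA and 8.69, 8.40 and 8.75 in the controls at 12 h. It rose by 0.69 with CsA (SE 0.10, adjusted p = 0.00312) and by 0.44 in the controls (SE 0.12, adjusted p = 0.0249). A dimmer probe set gave 0.00 with CsA and 0.29 in the controls, and the mean of the probe sets ended both calls (0.34 with CsA, 0.36 in the controls). With CsA that dimmer probe set had 7.47, 7.88 and 6.39 at 48 h, against 7.40, 6.94 and 7.40 at 12 h. The low 48 h value was on replicate 3, the array that stood apart. WDR43, a processome subunit that joins early, had 10.01, 10.46 and 10.00 with CsA and 10.03, 9.99 and 10.23 in the controls at 48 h, against 9.48, 9.66 and 9.65 with CsA and 9.55, 9.63 and 9.75 in the controls at 12 h. It rose by 0.56 with CsA (SE 0.15, adjusted p = 0.0258) and by 0.44 in the controls (SE 0.10, adjusted p = 0.0112). HEATR1, a processome protein also linked to rRNA transcription, had 11.54, 11.59 and 11.79 with CsA and 11.31, 11.45 and 11.52 in the controls at 48 h, against 11.06, 11.09 and 11.30 with CsA and 11.14, 11.06 and 11.20 in the controls at 12 h. It rose by 0.49 with CsA (SE 0.12, adjusted p = 0.0158) and by 0.29 in the controls (SE 0.09, adjusted p = 0.0318). The mean of its 4 probe sets ended both calls (0.28 with CsA, 0.30 in the controls), and a dimmer probe set gave -0.02 with CsA. That dimmer probe set had 8.66, 8.94 and 8.48 with CsA at 48 h, lowest on replicate 3, against 8.70, 8.62 and 8.82 at 12 h. With CsA, WDR43 lost its call without 12 h replicate 1 (0.50), 2 (0.59) or 3 (0.58), and HEATR1 without 12 h replicate 1 (0.44) or 2 (0.46). In the controls RRP12 lost its call without 12 h replicate 1 (0.48) or 2 (0.33) or 48 h replicate 1 (0.37), and HEATR1 without any 1 array except 48 h replicate 1 (0.24 to 0.33).

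NOP14, a processome assembly factor, had 8.84, 8.94 and 9.31 with CsA and 8.87, 9.05 and 8.85 in the controls at 48 h, against 8.65, 8.66 and 8.77 with CsA and 8.62, 8.59 and 8.69 in the controls at 12 h. Its change was 0.34 with CsA (SE 0.14, adjusted p = 0.0952), and it rose by 0.29 in the controls (SE 0.08, adjusted p = 0.0296, or 0.0535 with replicate numbers as a block). The call was lost without control 12 h replicate 1 (0.29), 2 (0.27) or 3 (0.32) or 48 h replicate 2 (0.23). UTP20, whose 48 h values stand above, had 8.61, 8.57 and 8.61 with CsA at 12 h, against 8.88, 8.36 and 8.27 in the controls. Its change was -0.10 with CsA (SE 0.11, adjusted p = 0.485). In the controls it fell by 0.59 (log2 change -0.59, SE 0.19, adjusted p = 0.0437, or 0.078 with the block), a call lost without 12 h replicate 1 (-0.40) or 2 (-0.67) or 48 h replicate 1 (-0.50) or 2 (-0.57). UTP4, a processome subunit of the group that contacts the rRNA precursor first, had 11.97, 11.85 and 12.07 with CsA and 11.86, 11.81 and 11.80 in the controls at 48 h, against 11.68, 11.72 and 11.75 with CsA and 11.76, 11.57 and 11.58 in the controls at 12 h, with changes of 0.25 with CsA (SE 0.09, adjusted p = 0.0674) and 0.18 in the controls (SE 0.08). The 4 small subunit genes not yet given over time, RRP9, BYSL, WDR75 and DDX10, changed by 0.01 to 0.28 with CsA and by -0.22 to 0.20 in the controls, and none passed.

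Of the polymerase genes, 1 rose and 1 fell. POLR1B had 9.91, 9.63 and 9.68 with CsA at 12 h, against 9.89, 9.62 and 9.59 in the controls, below all of the 48 h values given above. It rose by 0.46 with CsA (SE 0.14, adjusted p = 0.0399) and by 0.57 in the controls (SE 0.11, adjusted p = 0.00596). All 4 of its probe sets moved upward, by 0.26 to 0.88 with CsA and 0.24 to 0.75 in the controls. UBTF had 8.50, 8.62 and 8.93 with CsA at 12 h, against 8.73, 8.74 and 8.60 in the controls. With CsA the change was -0.33 (SE 0.15, adjusted p = 0.128) and 48 h replicate 3 lay among the 12 h arrays. In the controls it fell by 0.43 (log2 change -0.43, SE 0.07, adjusted p = 0.00404) and the arrays were apart. Its 4 probe sets ran from -1.03 to -0.33 with CsA and from -0.76 to -0.43 in the controls. When every probe set was tested on its own, 1 of the 4 passed with CsA and all of them in the controls. POLR1A had 7.53, 7.44 and 7.76 with CsA at 12 h, against 7.65, 7.47 and 7.60 in the controls, with changes of -0.27 with CsA (SE 0.12, adjusted p = 0.112) and -0.20 in the controls (SE 0.12, adjusted p = 0.231). With CsA, POLR1B lost its call without 12 h replicate 2 (0.40) or 3 (0.43) or 48 h replicate 2 (0.50), while leaving out 1 array ended no polymerase call in the controls.

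Among snoRNP proteins FBL alone passed. FBL had 13.63, 13.71 and 13.88 with CsA at 12 h, against 13.80, 13.71 and 13.79 in the controls. With CsA the change was -0.25 (SE 0.10, adjusted p = 0.0811). It fell by 0.29 in the controls (log2 change -0.29, SE 0.07, adjusted p = 0.0139), a call lost without 12 h replicate 1 (-0.27) or 3 (-0.28), and in both treatments every 48 h array lay below every 12 h array. NOP58 had -0.01 with CsA and -0.16 in the controls, and NHP2, NOP10 and GAR1 had 0.05 to 0.17 with CsA and -0.03 to 0.08 in the controls. Of the abundant nucleolar proteins DDX21 passed, with 13.70, 13.43 and 13.58 with CsA at 12 h, against 13.67, 13.44 and 13.64 in the controls. It rose by 0.45 with CsA (SE 0.12, adjusted p = 0.0269) and had 0.18 in the controls (SE 0.09, adjusted p = 0.149), and its call was lost without CsA 12 h replicate 2 (0.38) or 3 (0.45) or 48 h replicate 1 (0.47). NPM1 had 15.39, 15.35 and 15.36 with CsA at 12 h, against 15.41, 15.42 and 15.30 in the controls. Its changes, 0.22 with CsA (SE 0.08, adjusted p = 0.053) and 0.19 in the controls (SE 0.07, adjusted p = 0.0681), missed the threshold although every 48 h array lay above every 12 h array. NCL had 0.12 (SE 0.11) with CsA and -0.02 (SE 0.08) in the controls. NOLC1 had 13.12, 13.09 and 13.23 with CsA at 12 h, against 13.28, 13.02 and 13.13 in the controls, with changes of -0.08 (SE 0.10) and 0.07 (SE 0.11), while 1 of its dimmer probe sets gave -0.88 with CsA and -0.43 in the controls. That probe set had 9.22, 9.52 and 8.40 with CsA at 48 h, lowest on replicate 3, against 9.88, 9.87 and 10.01 at 12 h.

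Of the 7 large subunit factors 1 passed over time. This was PES1, with CsA, where it had 10.60, 10.60 and 10.63 at 48 h, against 10.18, 10.19 and 10.34 at 12 h. It rose by 0.38 (SE 0.09, adjusted p = 0.0137), lost without 12 h replicate 1 (0.35) or 2 (0.35), and its change in the controls was 0.13 (SE 0.08, adjusted p = 0.21). DDX56 had 9.17, 9.17 and 9.04 with CsA at 12 h, against 9.27, 9.00 and 9.07 in the controls, with changes of 0.43 with CsA (SE 0.17, adjusted p = 0.0898) and 0.10 in the controls (SE 0.09). NOP2 had 10.50, 10.45 and 10.65 with CsA at 12 h, against 10.58, 10.36 and 10.62 in the controls, with changes of 0.18 (SE 0.09) and -0.19 (SE 0.10). Neither gene passed. The other 4 genes, NOP16, WDR12, RRP1B and RRS1, had changes of -0.02 to 0.24 with CsA and -0.19 to 0.12 in the controls. A dimmer probe set of RRP1B had a log2 change of -0.48 in the controls, past the threshold when probe sets were tested on their own (adjusted p = 0.0168).

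Upstream sequence was read for 4 small subunit genes: NOB1, UTP14A and LTV1, the largest called rises with CsA, and UTP20, the largest CsA value at 48 h. In the controls LTV1 rose less than RRP12 and WDR43. Each stretch is the 250 bases before the gene's start in RefSeq (GRCh38.p14), 5′ to 3′ on the gene's strand, in lower case with motif matches in capitals. The motifs searched on both strands were the E-box CACGTG, the ETS motif CCGGAAG, the CCAAT box CCAAT and the NRF1 motif GCGCATGCG. NOB1 (chr16:69754927-69755176, minus strand) held the NRF1 motif at 2 places, each on both strands with the matches overlapping by all but 1 base. UTP14A (chrX:129905914-129906163, plus strand) and UTP20 (chr12:101279855-101280104, plus strand) held the E-box, and LTV1 (chr6:143843088-143843337, plus strand) held an ETS motif and a CCAAT box.
NOB1: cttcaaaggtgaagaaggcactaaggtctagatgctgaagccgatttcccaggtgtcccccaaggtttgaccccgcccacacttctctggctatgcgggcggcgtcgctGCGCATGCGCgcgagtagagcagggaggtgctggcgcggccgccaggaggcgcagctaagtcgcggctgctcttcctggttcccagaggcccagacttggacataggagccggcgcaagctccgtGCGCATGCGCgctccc
UTP14A: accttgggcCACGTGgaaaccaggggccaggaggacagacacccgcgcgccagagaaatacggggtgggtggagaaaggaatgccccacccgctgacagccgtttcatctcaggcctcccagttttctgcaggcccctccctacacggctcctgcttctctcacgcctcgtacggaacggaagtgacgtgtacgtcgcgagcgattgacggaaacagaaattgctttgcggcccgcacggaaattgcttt
LTV1: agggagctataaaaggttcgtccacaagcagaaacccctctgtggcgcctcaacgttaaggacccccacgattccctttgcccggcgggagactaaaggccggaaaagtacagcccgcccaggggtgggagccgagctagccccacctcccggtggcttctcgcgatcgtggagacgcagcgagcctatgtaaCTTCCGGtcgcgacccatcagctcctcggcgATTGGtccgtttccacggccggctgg
UTP20: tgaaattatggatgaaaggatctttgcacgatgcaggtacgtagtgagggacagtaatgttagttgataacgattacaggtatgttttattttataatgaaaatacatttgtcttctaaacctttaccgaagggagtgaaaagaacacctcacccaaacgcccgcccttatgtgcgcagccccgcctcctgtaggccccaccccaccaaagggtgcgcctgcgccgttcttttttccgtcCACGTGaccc

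Over the measured members with an upstream sequence (27 of 32), the E-box was present in 5, or 18.5%, against 11.6% of the 9213 tested genes with one. The ETS motif was present in 10, or 37.0%, against 19.7%, the CCAAT box in 12, or 44.4%, against 42.1%, and the NRF1 motif in 2, or 7.41%, against 3.95%. Among all 27305 genes with an upstream sequence the shares were 7.73%, 10.2%, 37.0% and 2.02%. Of the 7 genes that rose in both time comparisons, POLR1B and LTV1 held the ETS motif (LTV1 with the CCAAT box), UTP14A the E-box and NOB1 the NRF1 motif, whereas HEATR1 and WDR43 held none of the 4, and RRP12 had no upstream sequence in the table. These matches describe letters only.

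Other genes of the same pathway, listed by function, also had mostly positive values with CsA at 48 h. The lists were drawn up with earlier results of these data known, so they are no independent check. At that time 14 of 14 further RNA polymerase I genes, 29 of 38 further small subunit factors and 42 of 48 further large subunit factors had a positive log2 change, against 49.2% of all genes, with medians of 0.20, 0.19 and 0.20. None passed the threshold. Without CsA replicate 3, a setting chosen for these lists after the data were seen, 11 of 14, 26 of 38 and 32 of 48 were positive, against 44.4% of all genes, with medians of 0.10, 0.12 and 0.10. TAF1A, a subunit of the polymerase I promoter factor, had 9.18, 9.33 and 9.93 with CsA at 48 h, against 8.66, 8.64 and 9.04 in the controls, a log2 change of 0.70 (SE 0.23, adjusted p = 0.151). TBL3, of the small subunit processome, had 8.50, 8.59 and 8.95 with CsA at 48 h, against 8.23, 7.97 and 7.72 in the controls, a log2 change of 0.71 (SE 0.18, adjusted p = 0.102). In both genes the CsA arrays lay above the controls. The 51 measured ribosomal protein genes, of 77 listed, had a median of 0.00 with 22 positive, and of 0.03 with 42 positive without that array. All 4 measured snoRNA host genes, of 14 listed, were positive, led by EPB41L4A-AS1 with 13.51, 13.30 and 13.46 with CsA at 48 h, against 12.79, 12.85 and 12.95 in the controls, a log2 change of 0.56 (SE 0.11, adjusted p = 0.0662). TBL3 was the 1 gene of these lists called for the difference of the CsA effects, 1.03 (SE 0.21, adjusted p = 0.0474).

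Over time the further small subunit factors had 13 rises and 0 falls with CsA, against 6 rises and 5 falls in the controls. The rises were 34.2% of the 38 genes with CsA and 15.8% in the controls, where 23.6% and 25.2% of all genes rose. The falls were 0% and 13.2%, where 22.2% of all genes fell in both. Further large subunit factors had 18 rises (37.5%) and 1 fall (2.08%) with CsA, against 14 (29.2%) and 9 (18.8%) in the controls. The difference between these counts was not tested. Further RNA polymerase I genes had 4 rises (28.6%) and 2 falls (14.3%) in each treatment. They included TAF1D, a promoter factor subunit, with 8.41, 8.63 and 8.84 with CsA and 8.10, 8.26 and 8.43 in the controls at 48 h, against 7.12, 6.96 and 6.60 with CsA and 6.78, 7.03 and 6.47 in the controls at 12 h. It rose by 1.73 with CsA (SE 0.17, adjusted p = 0.000837) and by 1.50 in the controls (SE 0.16, adjusted p = 0.000674). TCOF1, whose product treacle supports rRNA transcription, fell by 0.88 with CsA (SE 0.12, adjusted p = 0.00246) and by 1.27 in the controls (SE 0.12, adjusted p = 0.000394). EPB41L4A-AS1 rose by 2.89 with CsA and by 2.58 in the controls and SNHG17 by 1.92 and 1.33, both snoRNA host genes. Of the 4 measured host genes 3 rose with CsA and all rose in the controls. Ribosomal proteins had 3 called rises with CsA (5.88%) and 8 in the controls (15.7%), under the share of all genes, and no fall. Most still had small positive changes, with a median of 0.10 in each treatment. With CsA 45 of 51 were positive (88.2%, against 53.1% of all genes), and in the controls 50 (98%, against 52.7%).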

How the data were processed

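Total RNA of 12 cultures was hybridized to Affymetrix arrays, 3 for each of 4 groups, and the authors deposited log2 values made with GCRMA, per the submitters' processing notes. No source used here gives its version or settings. GCRMA usually corrects background by probe sequence, which compresses dim probe sets. No 2 arrays held identical values. The platform annotation gave 1 gene for 41097 of 54675 probe sets (1801 had several and 11777 none). Symbols were updated by gene identifier against a RefSeq table (GRCh38.p14). Probe sets with 1 gene and a log2 value above 4 on at least 3 arrays were kept (20625 probe sets, 11154 genes).

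Each comparison was fitted in limma 3.58.1 (R 4.3.3) on its own 6 arrays, and the difference of the CsA effects on all 12. For CsA against control this kept the 48 h arrays, which vary more, apart from the 12 h arrays. The comparisons over time, and the difference, held arrays of both times under a shared variance for each gene. Tests were two-sided, with Benjamini-Hochberg adjustment over all genes. The fit was also run on simulated data with independent noise and planted changes larger than any member's CsA change. That run does not show how well changes of the members' size would be found. Depth has no counterpart here; the number of arrays limits the precision. Arrays with the same replicate number deviated together between CsA and control at 12 h (correlations 0.467 to 0.577) and between the controls (0.278 to 0.325), which pairs them from the labels' numbers; at 48 h (-0.0506 to 0.3) and between the CsA groups (-0.00583 to 0.222) not every pair passed 0.1.

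The members and lists were chosen with earlier results of these data known. Values on every array are given for members called in any comparison, the 3 highest and 3 lowest changes of each, and POLR1A, POLR1B, UBTF, FBL, NCL and NPM1. From other lists at most 4 called genes are named, or else 2 with the largest changes. Alternatives covered the arrays fitted, filter, probe sets, scaling, prior, weights, pairing and single arrays.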

Additional observations from a re-analysis of the deposited data

How the results depend on the processing

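Of 19 counts and medians over the 32 genes, recomputed under 349 alternatives, 333 held. A count or median could move somewhat and still hold: the 26 positive members with CsA at 48 h became 21 to 27. The median CsA effect at 12 h ran from -0.05 to 0.02, so its sign was not fixed. With CsA at 48 h, 2 members were higher in a model of all 12 arrays and 3 with array weights, and without both 48 h replicate 1 arrays 17 members had all CsA arrays above the controls (53.1%, against 24.3% of all genes). With any 1 array left out, the rises over time numbered 4 to 11 with CsA and 4 to 6 in the controls, and the falls 0 to 1 with CsA and 1 to 3 in the controls. Falls with CsA numbered 2 in the model of all 12 arrays, 2 with the mean of a gene's probe sets, 1 with a trended robust prior, 3 with array weights and 1 when each probe set was tested alone. The difference of the CsA effects was called for 1 member with array weights (LTV1), and its median was 0.04 to 0.18 with any 1 array left out. For single genes, 997 of 1093 alternatives held, 56 lost a call and 40 gained one. Here a gene held if its call stayed, and no call came with a change of sign. An uncalled gene could change sign and still hold, as NCL did with CsA at 48 h (-0.09 to 0.13). The causes were not tested.

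With replicate numbers as a block, 8 members rose over time with CsA, as POLR1B lost its call (adjusted p = 0.0828), but those arrays share only a number. In the controls 7 rose and 2 fell, as NOP14 and UTP20 lost their calls. The block changed no other call of these genes.

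With 3 arrays a group, the median standard error of a member at 48 h is close to the median size of the CsA effect, so small shifts of single genes could not be resolved. Probe sets of a gene did not all share a sign in 8 of 14 genes for CsA at 48 h, and in 4 of 14 over time with CsA (HEATR1, POLR1A, RRP12 and RRP1B).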

Other observations

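Genes of neighbouring pathways were also called over time. Over all genes, 23.6% rose and 22.2% fell with CsA, and 25.2% rose and 22.2% fell in the controls. Of 28 genes of snoRNP assembly and the RNA exosome, 5 rose (17.9%) and 9 fell (32.1%) with CsA. In the controls 4 rose (14.3%) and 10 fell (35.7%). EXOSC5, an exosome subunit, rose by 1.68 with CsA (SE 0.13, limma adjusted p = 0.000363) and by 1.37 in the controls (SE 0.09, adjusted p = 0.000145). POP1, the largest protein of the RNase P and RNase MRP particles, fell by 2.98 with CsA (SE 0.17, adjusted p = 0.000198) and by 2.53 in the controls (SE 0.15, adjusted p = 9.66e-05). Of 19 measured RNA polymerase III genes, 4 rose (21.1%) and 3 fell (15.8%) with CsA, both under the share of all genes. In the controls 7 rose (36.8%) and 5 fell (26.3%). POLR3C rose by 1.27 with CsA (SE 0.17) and by 0.82 in the controls (SE 0.09), while POLR3K fell by 0.77 (SE 0.09) and by 0.78 (SE 0.09), all past the threshold.

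Of 8 measured genes of the MYC network, 4 rose (50%, against 23.6% of all genes) and 2 fell (25%, against 22.2%) with CsA. In the controls 6 rose (75%, against 25.2%) and 1 fell (12.5%, against 22.2%). MXI1, which competes with MYC for the partner MAX, rose by 1.18 with CsA (SE 0.20, limma adjusted p = 0.00497) and by 1.55 in the controls (SE 0.15, adjusted p = 0.000478). MXD3, of the same family, fell by 1.01 with CsA (SE 0.18, adjusted p = 0.00594) and by 1.24 in the controls (SE 0.15, adjusted p = 0.00113). None of these lists had a called member in either CsA comparison.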
